A study of Danio rerio with 2 samples.

Results

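Most of the genes described here build the extracellular matrix or bind it: collagens, laminins, a fibrillin, fibulins, fibronectins and integrins of the zebrafish. They were chosen by symbol, as every gene whose name begins, in upper or lower case, with col and a digit, lama, lamb, lamc, fbn, fbln, fn1, itga or itgb. Of 18723 gene rows, 92 matched, and 51 had at least 10 unique molecular identifiers (UMIs, counts of captured RNA molecules) over both libraries. Of these 51, 34 had at least 30 UMIs (34 to 219), which is the minimum for a call below, and 17 had 11 to 29. The symbol rule also took in itgb3bp and itgb1bp1, which encode integrin-binding proteins and count as members below. The 41 matching genes under 10 UMIs held 159 UMIs in all, and 2 of them had 0.

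Collagens are triple-helical proteins: the fibrillar types I, II, V and XI make fibrils, type IV makes the network of basement membranes, and others decorate fibrils or span the cell membrane. Laminins are trimers of an alpha, a beta and a gamma chain that lay down basement membranes, fibrillin forms microfibrils and fibronectin forms fibrils along which cells move. Integrins are pairs of an alpha and a beta chain through which cells hold these proteins, and neural crest cells, the migratory embryonic cells that give rise to pigment cells, glia and facial skeleton, use them as they leave the neural tube.

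The cells were sorted for the reporters mitfa:GFP, of a pigment-cell gene, and crestin:mCherry, of a neural crest gene, from embryos of the AB wild-type strain at 24 hours post fertilisation (hpf). Embryos were untreated or treated with ErbBi, a label taken to mean inhibition of ErbB receptors, through which neuregulin signals reach neural crest and glial cells. Each treatment is 1 library, made with 10x Genomics Chromium 3′ v2 reagents and polyA RNA. The sorted cells need not all be crest-derived, and how many embryos were pooled is not given in the sources used here.

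The untreated library held 999 cells, 7242348 UMIs and a median of 7099 UMIs per cell, and the ErbBi library held 348 cells, 1113172 UMIs and a median of 2732.5. Library and treatment cannot be told apart, so no test between treatments can be made, and every interval below covers counting error only. The number that ends each cell name was read as the number that ends each sample title, and every treatment direction rests on that reading. EGFP RNA had a UMI in 64.3% of untreated and 44.8% of ErbBi cells. Both libraries of the filtered table shared 6 barcodes and those of the unfiltered one 75, and values without the 6 are given where a call was lost.

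Cells were placed in 6 classes from genes that are not members. twist1a-high cells had at least 2 UMIs and 0.05% of their UMIs in twist1a, a transcription factor of mesenchyme. melanin-high cells had over 1% in dct, pmela and the TYRP1 genes of melanin synthesis, and gch2-high cells had over 2% in gch2, of the yellow pigment pathway. EGFP-high cells were the top 10% by EGFP share, foxd3-positive cells had at least 1 UMI of foxd3, an early neural crest factor, and the remaining cells met none of these. A cell that met several definitions went to the first of twist1a-high, melanin-high, gch2-high, EGFP-high and foxd3-positive, which decided the class of 308 cells. The classes are ranges, not types: 62 twist1a-high cells had 2 or 3 twist1a UMIs, 274 cells with 1 were not in the class, and 66 cells lay between 0.8% and 1.2% in the melanin genes. twist1a-high cells were 90 of the untreated library (9.01%) and 145 of the ErbBi library (41.7%), melanin-high cells 398 and 47, gch2-high 123 and 17, EGFP-high 81 and 18, foxd3-positive 160 and 47, and remaining 147 and 74.

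The mesenchyme marker list, with twist1a among its 9 rows, summed to 2140 CPM (UMIs per 1000000 UMIs of the pooled cells) in untreated twist1a-high cells and to 68.5 to 197 CPM in the other untreated classes. In the ErbBi library the same list summed to 2369 CPM in twist1a-high cells and 445 to 796 CPM in the others, so it was higher there in every class. The UMI minimums for twist1a and foxd3 are harder to meet in shallow cells, and median depth was 7099 UMIs untreated and 2732.5 with ErbBi. The effect of depth on class membership, and so on ErbBi ratios within classes, was not tested. Muscle markers summed to 490 CPM in untreated foxd3-positive cells, against 35.3 to 49.0 CPM in the other untreated classes. Epidermis markers were highest in the remaining cells of both libraries (1491 and 1538 CPM), erythroid markers reached 3871 CPM in the untreated remaining cells, and macrophage markers 693 CPM in the ErbBi remaining cells. Pigment markers were found outside their own classes. Melanoblast markers summed to 34239 and 31871 CPM in melanin-high cells and to 3211 to 6329 CPM in the other classes of both libraries. Xanthoblast markers summed to 60945 and 49550 CPM in gch2-high cells and to 3088 to 5151 CPM in the others. The part of these other cells, and of RNA shared between classes, in the results below was not tested.

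Members made up 2710 of the untreated UMIs (0.0374%) and 824 of the ErbBi UMIs (0.0740%). They were sparse: a member of 30 or more UMIs was found in 24 to 154 cells, and the cell richest in a member held a median of 5.41% of that member's UMIs. The heat map of levels shows the pattern gene by gene. The share of members among all UMIs ran from 0.0211% in gch2-high to 0.0507% in twist1a-high cells without treatment, and from 0.0346% in gch2-high to 0.0839% in the remaining cells with ErbBi.

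**Figure D1:**
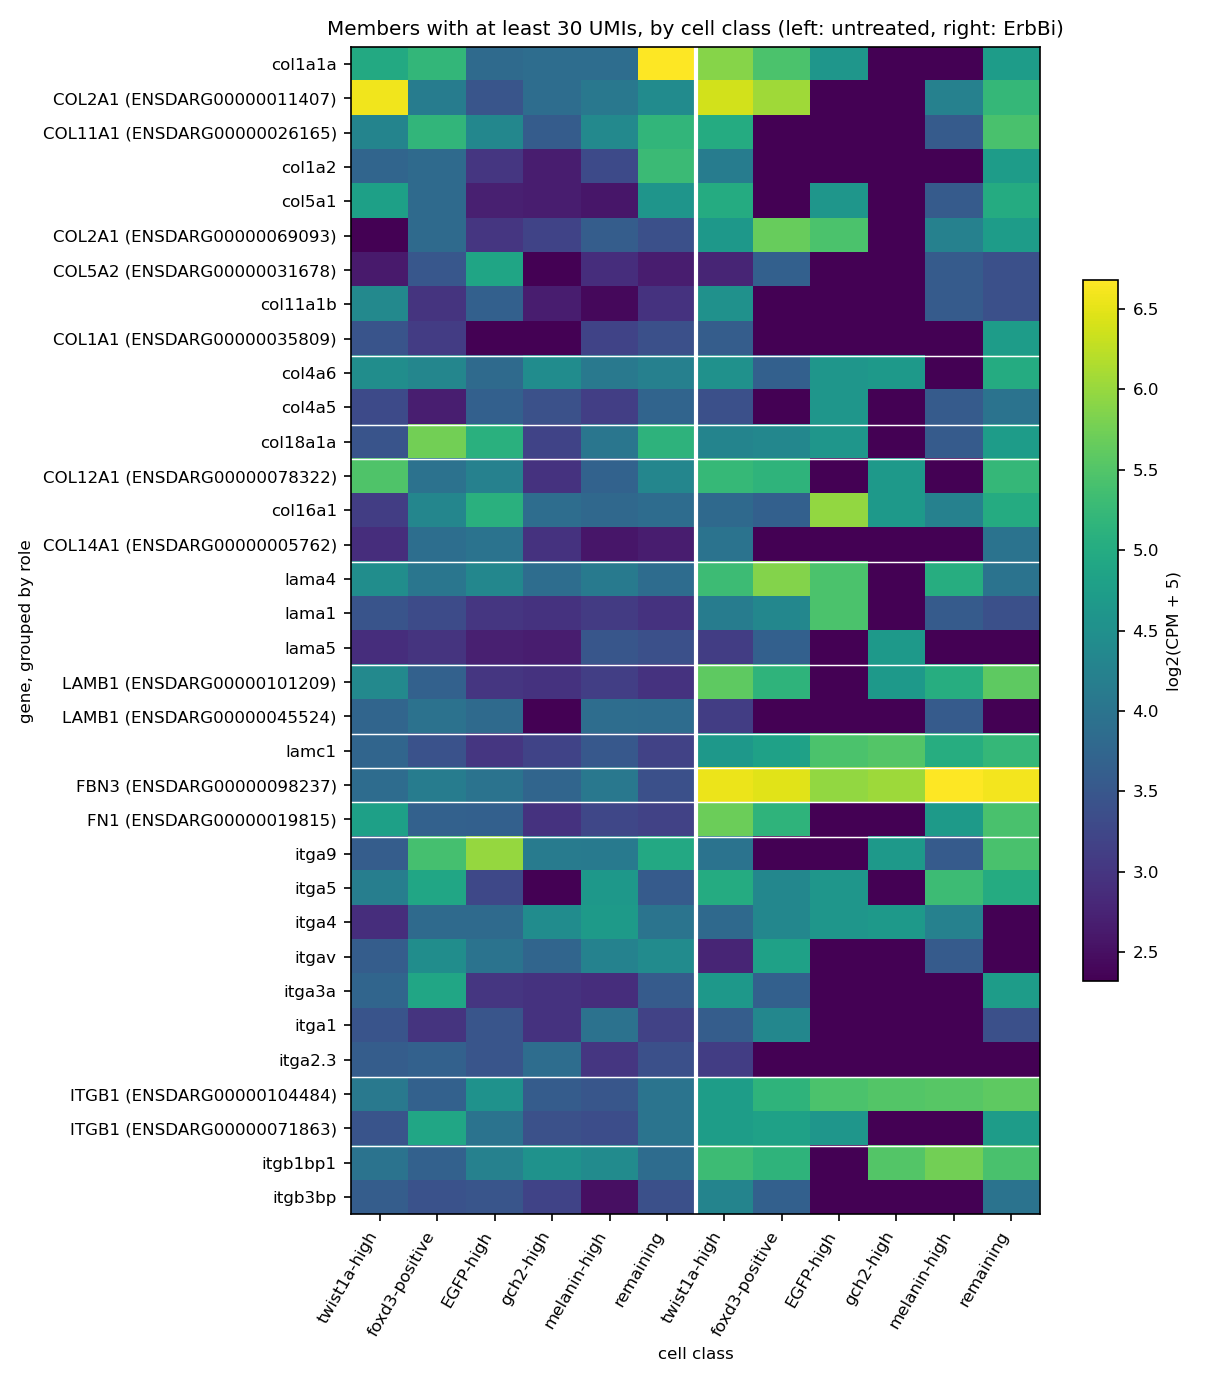
Level of the 34 members with at least 30 UMIs in each cell class, as log2(CPM + 5), with genes in rows grouped by role, the 6 untreated classes left of the white line and the 6 ErbBi classes right of it. COL2A1 (ENSDARG00000011407) is bright in the twist1a-high column of both libraries, and FBN3 is bright in all 6 ErbBi columns; dark cells of the ErbBi EGFP-high (18 cells) and gch2-high (17 cells) columns mean 0 UMIs at a depth where 1 UMI is about 20 CPM.

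The summed level of the fibrillar collagens was highest, among named classes, in twist1a-high cells. The 10 members summed to 189 CPM in untreated twist1a-high cells and 88.6 CPM in the other cells of that library, a ratio of 2.13 (95% interval 1.77 to 2.55). With ErbBi the sums were 246 and 123 CPM, a ratio of 2.0 (1.48 to 2.71). COL2A1 (ENSDARG00000011407) alone held 76 of the 157 untreated UMIs of the sum in twist1a-high cells, and 43 of 136 with ErbBi. Whether the group without this gene was highest there was not tested. gch2-high cells stood at the other end, with 37.8 CPM untreated, 0.353 (0.231 to 0.518) of the level in other cells. With ErbBi they had 0 fibrillar collagen UMIs in 17 cells. melanin-high cells were at 57.1 CPM untreated and 55.5 CPM with ErbBi. Those are 0.443 (0.370 to 0.527) and 0.273 (0.116 to 0.548) of the level in other cells. The remaining cells were at 225 CPM untreated, or 130 CPM without the cell richest in each gene, and at 1.07 times (0.726 to 1.54) the level of other cells with ErbBi. A UMI of any fibrillar collagen was found in 67.8% of untreated and 52.4% of ErbBi twist1a-high cells, and in 19.8% and 14.9% of melanin-high cells, whose median depth was 7314.5 and 2725 UMIs. A background share was not measured in a class that should lack these collagens, so a UMI is not read as expression by the cell. After thinning every cell to 1900 UMIs, 32 of 85 (37.6%, 27.4 to 48.8) and 33.6% of them had one, against 6.35% of untreated and 13.5% of ErbBi melanin-high cells. The untreated twist1a-high draw lay high, since the mean over all draws was 26.8%, with 31.5% for ErbBi. The median depth of twist1a-high cells was 9641.5 UMIs untreated and 3430 with ErbBi.

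**Figure D2:**
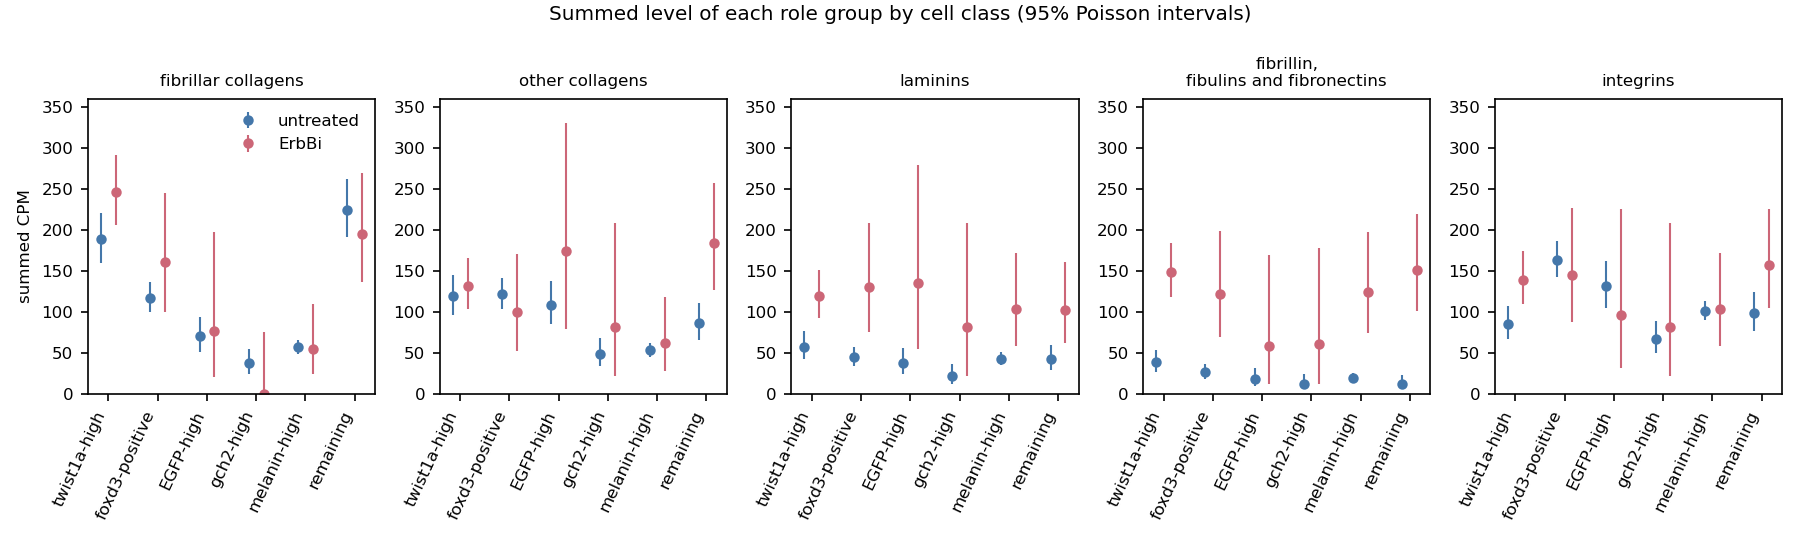
Summed CPM of 5 role groups (y axis) in the 6 cell classes (x axis), untreated in blue and ErbBi in red, with 95% Poisson intervals. Fibrillar collagens are at 189 and 246 CPM in twist1a-high cells and at 57.1 and 55.5 CPM in melanin-high cells. The points of laminins and the fibrillin group are higher with ErbBi in every class. In the small gch2-high and EGFP-high classes they rest on 3 to 7 ErbBi UMIs. There the interval of the ErbBi ratio includes 1 except for EGFP-high laminins (1.29 to 8.40).

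COL2A1 (ENSDARG00000011407), a type II collagen chain of cartilage and notochord, gave the clearest class difference. It stood at 91.4 CPM (72.0 to 114) in untreated twist1a-high cells and at 6.13 to 16.4 CPM in the other untreated classes, and its interval did not overlap theirs. In the ErbBi library it stood at 77.8 CPM (56.3 to 105) in twist1a-high cells, 61.3 CPM (26.4 to 121) in foxd3-positive cells, 32.5 CPM in remaining cells, 13.9 CPM in melanin-high cells and 0 in the small EGFP-high and gch2-high classes. There the twist1a-high and foxd3-positive intervals overlapped. The ratio of twist1a-high to other cells was 7.81 (5.60 to 10.9) untreated and 2.72 (1.5 to 5.18) with ErbBi. Notochord markers, of cells that also make type II collagen, summed to 20.4 CPM in untreated and 18.1 CPM in ErbBi twist1a-high cells, below the 36.7 and 25.2 CPM of the whole libraries. A melanin-high cell held 49 of the 266 untreated UMIs of these markers, and a remaining cell 23. The list includes and1, an actinodin gene like and2 and and3 of the fin fold. It held 146 of the 266 UMIs and all 23 of the remaining cell. A sum of the list without and1 was not made, so these sums need not follow notochord cells. The part of notochord cells in the COL2A1 level was not tested.

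Members called in a class contrast had a ratio of at least 2-fold in the same direction in each library. Of 9319 genes with 30 UMIs, 3.28% were called higher and 5.84% lower in twist1a-high cells, and of the 34 members 4 were higher (11.8%) and 2 lower (5.88%). Shares over all genes, here and below, cover every gene above that minimum and were not matched to the members by UMIs. The median log2 ratio of the members was 0.21 and that of all genes tested -0.03. The 4 were COL2A1 (ENSDARG00000011407), col11a1b, col5a1 and itgb3bp. col11a1b, a type XI chain of thin fibrils, was at 15.6 CPM in untreated twist1a-high cells and 2.03 CPM in the others, and at 18.1 and 3.57 CPM with ErbBi. Those are ratios of 7.71 (3.29 to 18) and 5.07 (1.08 to 47.6), the latter on 2 UMIs in other cells. col5a1, a type V chain that sets fibril width, was at 22.8 against 4.99 CPM and at 27.1 against 12.5 CPM. Its ratios were 4.58 (2.45 to 8.32) and 2.17 (0.833 to 6.30), the second falling to 1.90 without the richest cell. The remaining cells came close to the twist1a-high level of col5a1 in both libraries, so the trait was not particular to twist1a-high cells. A single remaining cell held 5 of the 51 untreated col5a1 UMIs. itgb3bp encodes CENP-R, known in mammals as a partner of the beta3 integrin tail and of the centromere, and is no integrin itself. Its ratios of 2.20 (0.727 to 5.64) and 2.70 (0.649 to 15.8) rest on 6 and 8 UMIs in the class, and the first was 1.85 without the richest cell. With the EGFP-high, melanin-high and gch2-high cells left out, so that twist1a-high cells were set against foxd3-positive and remaining cells alone, 1 of the 4 calls was left, that of col11a1b. There the ErbBi ratio of COL2A1 was 1.75, and col5a1 was at 1.81 untreated and 1.71 with ErbBi.

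Lower in twist1a-high cells were col16a1 and COL5A2 (ENSDARG00000031678). col16a1, a fibril-associated collagen, was at 3.61 CPM in untreated twist1a-high cells and 12.5 CPM in the others, and at 9.04 and 21.4 CPM with ErbBi, ratios of 0.289 (0.0584 to 0.875) and 0.422 (0.117 to 1.29). COL5A2, the second type V chain, had 1 UMI in the class in each library, with ratios of 0.234 (0.00574 to 1.39) and 0.338 (0.00643 to 4.21), and the ErbBi ratio was 1 without the richest cell. The type V chains thus lay on opposite sides of the twist1a contrast, on few UMIs. COL5A2 was highest in untreated EGFP-high cells, at 24.5 CPM (14 to 39.8), and at 6.40 CPM or less in every other untreated class.

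**Figure D3:**
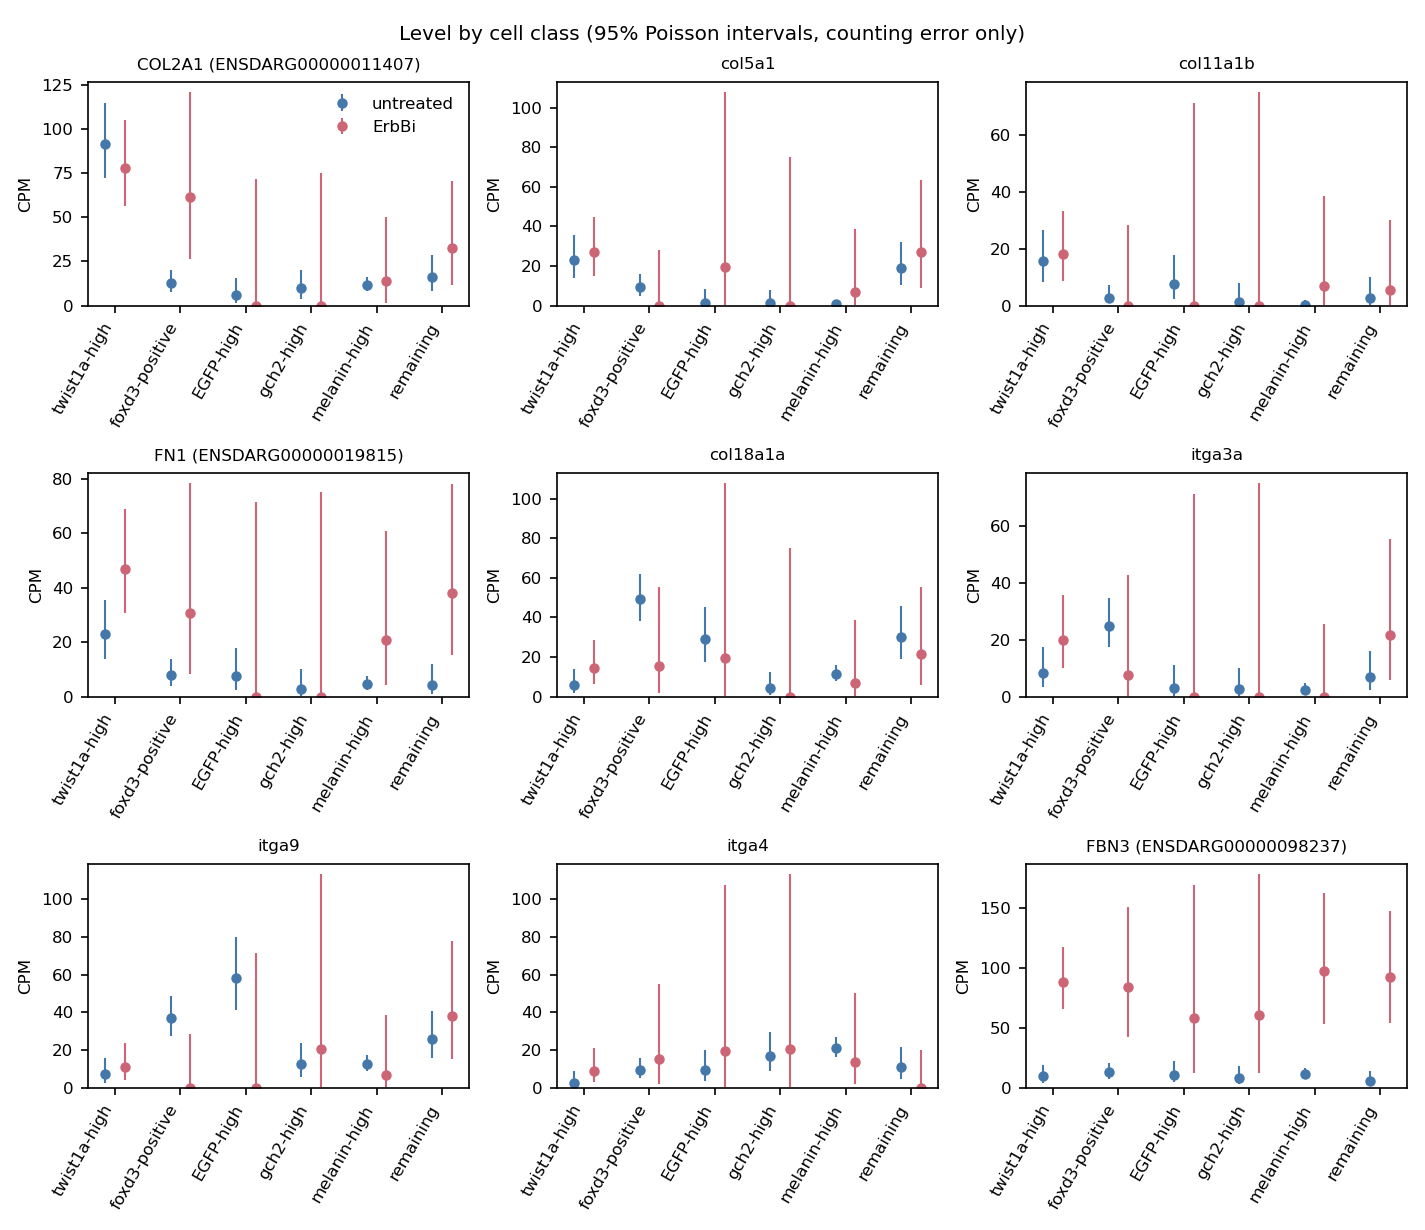
CPM (y axis) of 9 members in the 6 cell classes (x axis), untreated in blue and ErbBi in red, with 95% Poisson intervals that cover counting error. Among the untreated classes, COL2A1, col5a1, col11a1b and FN1 are highest in twist1a-high cells, col18a1a and itga3a in foxd3-positive cells and itga9 in EGFP-high cells. FBN3 is higher in all 6 ErbBi classes than in their untreated counterparts.

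Type I collagen followed no class in a steady way. col1a1a, the main alpha1 chain of skin and bone, was at 97.3 CPM in untreated remaining cells, 32.0 CPM in foxd3-positive, 26.4 CPM in twist1a-high and 9.2 to 9.79 CPM in the other 3 classes. A single remaining cell of 1823 UMIs held 50 of its 179 untreated UMIs, together with 127 UMIs of and3 and 53 of and2, actinodin genes of the fin fold. With ErbBi it was at 54.3 CPM in twist1a-high cells, 38.3 CPM in foxd3-positive, 21.7 CPM in remaining, 19.3 CPM in EGFP-high and 0 in melanin-high and gch2-high cells. col1a2, its partner chain, was at 34.3 CPM in untreated remaining cells against 5.68 CPM in the others and at 21.7 against 7.54 CPM with ErbBi. It was called higher in the remaining cells, with ratios of 6.03 (3.48 to 10.3) and 2.87 (0.617 to 11.3), where 1.92% of all genes were called higher and 2 of 34 members were. A single remaining cell of 1256 UMIs held 12 of its 62 untreated UMIs. The other member called there was col4a5, at 8.22 against 3.99 CPM and 10.8 against 5.39 CPM, ratios of 2.06 (0.693 to 5.12) and 2.01 (0.191 to 12.3). No member was called lower in the remaining cells, where 0.858% of all genes were. COL1A1 (ENSDARG00000035809), the other alpha1 gene, had 26 untreated and 8 ErbBi UMIs and was at 0 in untreated gch2-high and EGFP-high cells.

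The second COL2A1 gene (ENSDARG00000069093) showed another pattern from the first. It had 0 UMIs in untreated twist1a-high cells, where the first had 76, and 11 against 43 in those of the ErbBi library. A melanin-high cell of 13801 UMIs held 13 of its 43 untreated UMIs, with 34 of the 49 untreated UMIs of ntd5 and 7 of tbxta, both notochord genes. COL11A1 (ENSDARG00000026165), a type XI chain, was at 31.5 CPM in untreated remaining and 31.3 CPM in foxd3-positive cells, 14.4 to 15.8 CPM in twist1a-high, melanin-high and EGFP-high cells, and 6.99 CPM in gch2-high cells. Its ErbBi values were 37.9 CPM in remaining, 27.1 CPM in twist1a-high and 6.94 CPM in melanin-high cells, and 0 in the other classes. The highest and lowest classes, remaining and gch2-high, did not overlap in their untreated intervals.

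Several members were lower in melanin-high cells than in all other cells pooled. Here 5.68% of all genes were called higher and 5.89% lower, and of the 34 members 0 were higher and 4 lower (11.8%), with a median log2 ratio of -0.46 against -0.10 for all genes. The 4 were col5a1, COL2A1 (ENSDARG00000011407), col18a1a and itga9. col5a1 was at 1.03 CPM in untreated melanin-high cells against 11.1 CPM in the others and at 6.94 against 21.7 CPM with ErbBi, ratios of 0.0932 (0.0186 to 0.289) and 0.320 (0.00774 to 1.99). COL2A1 had ratios of 0.433 (0.287 to 0.639) and 0.236 (0.0279 to 0.892), the second on 2 UMIs in the class. Its untreated level of 11.7 CPM lay above gch2-high (9.79 CPM) and EGFP-high cells (6.13 CPM). It lay below twist1a-high (91.4 CPM), remaining (16.4 CPM) and foxd3-positive cells (12.8 CPM). The ErbBi ratios of col18a1a, 0.448 (0.0106 to 2.91), and itga9, 0.480 (0.0114 to 3.16), rest, like that of col5a1, on 1 UMI each in 47 cells. These low levels were not particular to melanin-high cells. Untreated col5a1 was at 1.40 CPM in gch2-high and 1.53 CPM in EGFP-high cells, on 1 UMI each. Untreated col18a1a was at 11.3 CPM in melanin-high, 6.01 CPM in twist1a-high and 4.20 CPM in gch2-high cells. For itga9 the melanin-high level was 12.4 CPM and the twist1a-high level 7.21 CPM. Some integrin and laminin genes had untreated intervals above 1 in these cells without a call in both libraries: itga1 at 2.57 (1.39 to 4.87), itga4 at 2.22 (1.47 to 3.38), lama5 at 2.24 (1.02 to 5.09) and itga5 at 1.6 (1.09 to 2.36). For lama5, a pair of melanin-high cells, of 13801 and 20113 UMIs, held 5 each of the 18 UMIs in the class, and the second also held 158 UMIs of epidermis markers. For itga1, a collagen-binding alpha chain, that meant 10.7 CPM in melanin-high cells and 2.80 to 6.13 CPM in the other untreated classes.

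In gch2-high cells no member was called, where 1.85% of all genes were higher and 1.09% lower. itga5, the alpha chain of the classical fibronectin receptor, had 0 of its 112 untreated UMIs in these 123 cells, which allows up to 4.20 CPM (3 counts). The level of itga5 elsewhere was 24.9 CPM in untreated foxd3-positive, 19.9 CPM in melanin-high, 13.2 CPM in twist1a-high, 6.85 CPM in remaining and 4.60 CPM in EGFP-high cells. With ErbBi itga5 was at 15.3 to 34.7 CPM in the classes other than gch2-high, where it was again at 0 in 17 cells, a floor of 61.1 CPM. LAMB1 (ENSDARG00000045524), a laminin beta1 chain, had 0 of its 63 untreated UMIs in gch2-high cells.

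foxd3-positive cells carried more integrin transcript than the other untreated cells, while their laminin sum was 1.07 (0.799 to 1.42) of that elsewhere. Integrins summed to 164 CPM there against 98.2 CPM, a ratio of 1.67 (1.42 to 1.95), and to 145 against 132 CPM with ErbBi, a ratio of 1.1 (0.641 to 1.79). itga3a, an alpha chain of laminin receptors, was at 24.9 CPM in untreated foxd3-positive cells and at 2.41 to 8.41 CPM in the other classes, a ratio to all others of 6.32 (3.63 to 11.2). col18a1a, a collagen of basement membranes and the source of endostatin, was at 49.1 CPM (38.2 to 62.1) in foxd3-positive cells, 30.1 CPM in remaining, 29.1 CPM in EGFP-high, 11.3 CPM in melanin-high, 6.01 CPM in twist1a-high and 4.20 CPM in gch2-high cells. Its ratio in foxd3-positive cells was 3.49 (2.50 to 4.87). col15a1b, the related multiplexin, named after its value was seen, had a ratio of 7.27 (2.84 to 20) and ITGB1 (ENSDARG00000071863), a beta1 chain shared by most matrix-binding integrins, one of 3.73 (2.29 to 6.04).

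No member was called in foxd3-positive cells in both libraries, where 1.55% of all genes were higher and 1.05% lower. itga3a had 1 UMI in the 47 ErbBi foxd3-positive cells (7.66 CPM, 0.194 to 42.7) and col18a1a 2 (15.3 CPM, 1.85 to 55.3). ITGB1 (ENSDARG00000071863), in contrast, stood at 24.9 CPM untreated and 23 CPM (4.74 to 67.1, 3 UMIs) with ErbBi. Muscle markers were at 490 CPM in the untreated class and 38.3 CPM in the ErbBi class. Their part in the difference was not tested.

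EGFP-high cells had 1 called member, col16a1, where 1.3% of all genes were higher and 0.665% lower. It was at 29.1 CPM in untreated EGFP-high cells against 9.71 CPM and at 58.0 against 13.2 CPM with ErbBi, ratios of 3.0 (1.70 to 5.07) and 4.40 (0.811 to 15.8), the second on 3 UMIs. itga9, the alpha chain of a tenascin and fibronectin receptor, was highest in these cells without treatment, at 58.3 CPM (41.2 to 80.0), followed by foxd3-positive at 37 CPM, remaining at 26.0 CPM, gch2-high at 12.6 CPM, melanin-high at 12.4 CPM and twist1a-high at 7.21 CPM. The intervals of EGFP-high and foxd3-positive cells overlapped, and those of EGFP-high and the last 3 classes did not. itga9 had no UMI in the 18 EGFP-high and 47 foxd3-positive cells of the ErbBi library. EGFP is a reporter the cells were sorted for, so this class is a range of reporter RNA.

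itga4, the alpha chain that binds fibronectin and VCAM1, was at 21 CPM in untreated melanin-high, 16.8 CPM in gch2-high, 9.2 to 11 CPM in EGFP-high, foxd3-positive and remaining cells and 2.4 CPM in twist1a-high cells. Its twist1a-high ratio was 0.154 (0.0184 to 0.571) untreated, while with ErbBi the class was at 9.04 CPM. itgav, of the vitronectin receptors, ran from 7.21 CPM in twist1a-high to 17.1 CPM in foxd3-positive untreated cells, a range within which most intervals overlapped. itga2.3, a collagen-binding alpha chain, ran from 3.10 to 9.79 CPM. ITGB1 (ENSDARG00000104484) ran from 6.19 CPM in melanin-high to 18.4 CPM in EGFP-high untreated cells. itgb1bp1 encodes ICAP-1, known in mammals to bind the beta1 integrin tail, and ran from 7.83 to 18.2 CPM.

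Laminin and type IV collagen levels overlapped across most untreated classes. Laminins summed to 57.7 CPM in twist1a-high, 38.3 to 44.8 CPM in EGFP-high, remaining, melanin-high and foxd3-positive and 22.4 CPM in gch2-high cells. lama4 ran from 9.59 to 16.8 CPM, lama1 from 2.74 to 6.01 CPM, lamc1 from 3.07 to 8.41 CPM and lama5 from 1.40 to 6.19 CPM. Among the type IV genes, col4a1 and col4a2, the chains of most basement membranes, had 12 UMIs together, and col4a5 and col4a6, which passed 10 UMIs each, had 155. They are neighbours in the RefSeq annotation of the GRCz12tu assembly. col4a6 ran from 9.2 to 16.8 CPM over the untreated classes and col4a5 from 1.42 to 8.22 CPM. Of the linking collagens, COL12A1 (ENSDARG00000078322) was at 39.7 CPM in untreated twist1a-high cells and 2.80 to 15.1 CPM elsewhere, with a ratio of 4.24 (2.68 to 6.59), and at 32.6 CPM with ErbBi, where foxd3-positive and remaining cells were at 30.6 and 32.5 CPM. COL14A1 (ENSDARG00000005762) was highest in untreated EGFP-high (10.7 CPM) and foxd3-positive cells (9.96 CPM).

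FN1 (ENSDARG00000019815), fibronectin, was at 22.8 CPM in untreated twist1a-high cells and 2.80 to 7.83 CPM in the others, a ratio of 4.31 (2.32 to 7.77), and at 47.0 CPM in those of the ErbBi library, where remaining cells were at 37.9 CPM and foxd3-positive at 30.6 CPM. Of the 17 members with 10 to 29 UMIs, chosen to be named after their values were seen, col23a1a, a transmembrane collagen, had an untreated twist1a-high ratio of 19.3 (7.06 to 60.6), col6a1 and col6a2, the beaded-filament type VI chains, ratios of 13.5 (3.43 to 62.8) and 34.7 (7.18 to 330), and itga8 one of 5.99 (1.90 to 18.1). These untreated ratios rest on few UMIs and were below the minimum for a call. With ErbBi, twist1a-high cells, 41.7% of that library, held 5 of 8 UMIs of col23a1a and 5 of 7 of col6a1. They held 7 of 9 of itga8 and 1 of 5 of col6a2, whose other 4 lay in a single remaining cell. The col6a2 difference was thus not seen in the ErbBi library.

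Over all cells, more members were higher than lower with ErbBi. Of 34 members, 15 were at least 2-fold higher (44.1%) and 3 at least 2-fold lower (8.82%), where 12.3% of all 9319 genes were higher and 6.15% lower. The share of all genes called higher depended on their UMIs, at 18.1% for a minimum of 10 and 6.50% for 100. The sparse members were not matched to genes of like UMIs, so part of the gap may be counting noise. The median log2 ratio was 0.83 for members and 0.18 for all genes, so changes are read against that shift. Scaling by the median ratio moved the median of all genes to -0.02, its split to 8.45% higher and 9.29% lower, and left 13 members higher and 3 lower. The intervals lay above 1 for 17 of the 34, below 1 for 2 and included 1 for 15. No share of intervals over all genes was worked out, so these counts are not read as particular to the members. By role, 5 of 9 fibrillar collagens were higher, 1 of 6 other collagens, 4 of 6 laminins and 1 of 9 integrins, with 1 laminin and 2 integrins lower. The fibrillin, the 1 fibronectin tested and 2 of 2 integrin-binding proteins were higher as well.

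The libraries also differed in their share of twist1a-high cells, 9.01% untreated and 41.7% with ErbBi, and in mesenchyme markers, at 339 and 1475 CPM. The cause of the all-cell differences was not tested. When both libraries were given the same class weights, 9 members were at least 2-fold higher and 3 lower. At that setting 9.54% of all genes were higher and 5.02% lower. COL2A1 (ENSDARG00000011407) fell from 2.54 to 1.18, col11a1b from 3.0 to 1.32, col5a1 from 2.81 to 1.34 and COL12A1 (ENSDARG00000078322) from 2.03 to 1.16 under those weights. Without the EGFP-high, melanin-high and gch2-high cells, 8 members were higher and 3 lower.

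**Figure D4:**
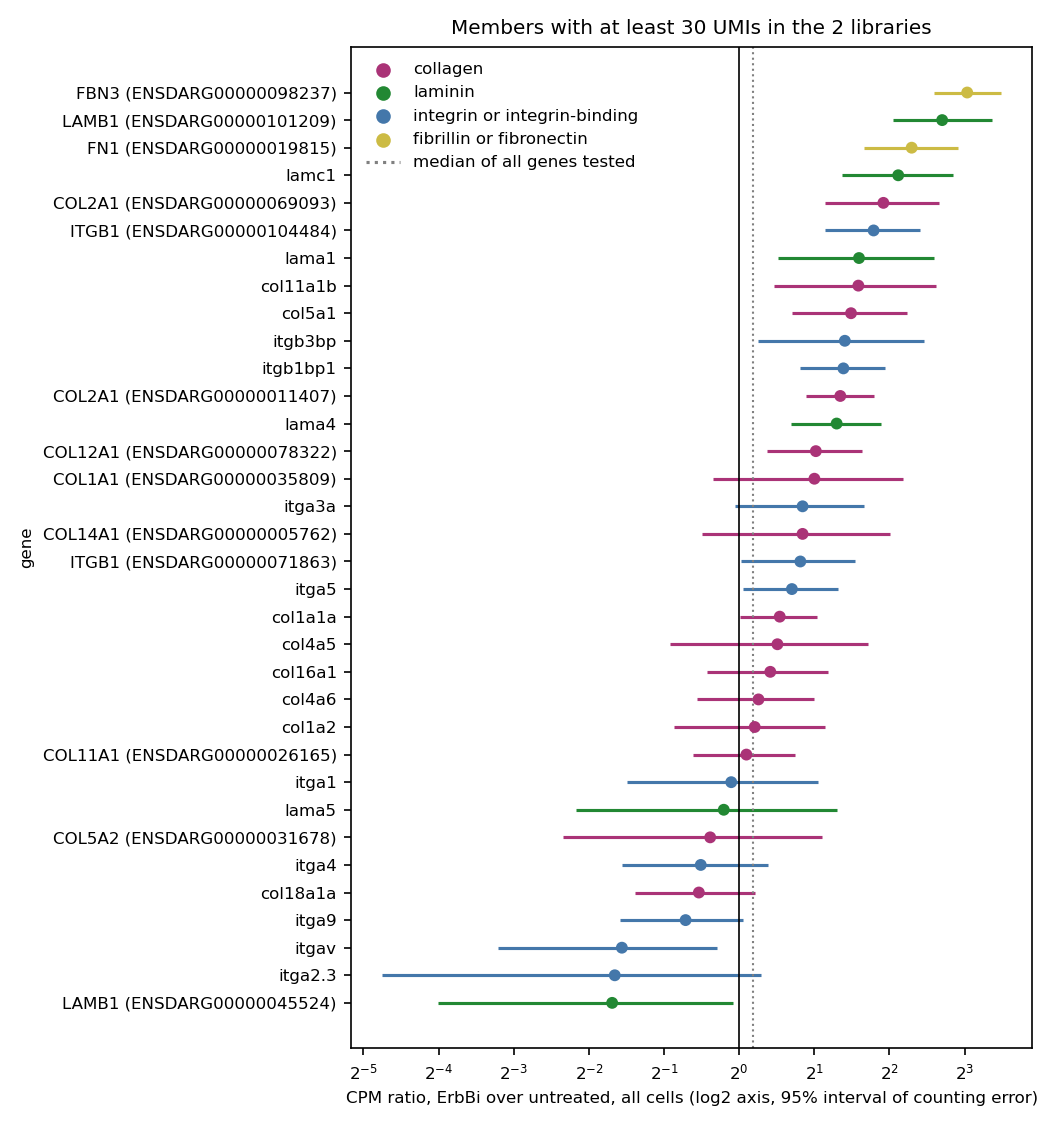
CPM ratio of the ErbBi to the untreated library over all cells (x axis, log2 scale) for the 34 members with at least 30 UMIs, with 95% intervals of counting error; colours give the protein family and the dotted line the median of all genes tested. FBN3 (8.2), LAMB1 ENSDARG00000101209 (6.51) and FN1 (4.91) lie farthest right, and LAMB1 ENSDARG00000045524 (0.310), itga2.3 (0.317) and itgav (0.339) farthest left.

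FBN3 (ENSDARG00000098237), the fibrillin, had the largest ratio of the 34. It was at 10.6 CPM untreated (77 UMIs) and 87.1 CPM with ErbBi (97 UMIs), a ratio of 8.2 (6.01 to 11.2). In the untreated library it was at 12.8 CPM in foxd3-positive, 11.7 CPM in melanin-high, 10.7 CPM in EGFP-high, 9.62 CPM in twist1a-high, 8.39 CPM in gch2-high and 5.48 CPM in remaining cells. With ErbBi the same classes were at 84.2, 97.1, 58.0, 88.6, 61.1 and 92.1 CPM. Each ErbBi value was above each untreated value, though the intervals of the small EGFP-high (12 to 170) and gch2-high (12.6 to 178) classes reached down to the untreated levels. Within classes the ratio was 9.22 (4.33 to 22.5) in twist1a-high and 8.30 (4.12 to 15.9) in melanin-high cells. The intervals of all 6 classes overlapped within each library. The mesenchyme list, too, was higher with ErbBi in each class, and its part in the FBN3 level was not tested.

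Fibronectin and 4 of the 6 laminin chains with 30 UMIs were also called higher. FN1 (ENSDARG00000019815) was at 7.32 CPM untreated and 35.9 CPM with ErbBi, a ratio of 4.91 (3.17 to 7.54), and in twist1a-high cells at 22.8 and 47.0 CPM, a ratio of 2.06 (1.1 to 3.94). That within-class ratio was 1.92 without the 6 shared barcodes and 1.59 as a mean of per-cell CPM. LAMB1 (ENSDARG00000101209), a beta1 chain, went from 5.66 to 36.8 CPM, a ratio of 6.51 (4.12 to 10.3), and within twist1a-high cells from 15.6 to 43.4 CPM, 2.78 (1.36 to 5.94). lamc1, the gamma1 chain, went from 5.80 to 25.2 CPM, 4.34 (2.59 to 7.16), lama1 from 3.87 to 11.7 CPM, 3.02 (1.44 to 6.03), and lama4, an alpha chain of vessels and nerve, from 12.4 to 30.5 CPM, 2.46 (1.61 to 3.68).

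As a sum, laminins were higher with ErbBi in each class that had enough cells. The ratio was 2.71 (2.19 to 3.34) over all cells, 2.07 (1.40 to 3.07) in twist1a-high, 2.44 (1.33 to 4.18) in melanin-high, 2.90 (1.59 to 5.03) in foxd3-positive and 2.42 (1.29 to 4.43) in remaining cells. lama5 alone of the alpha chains did not follow, at 4.14 and 3.59 CPM, a ratio of 0.867 (0.222 to 2.46). Fibrillar collagens, by contrast, were 1.84 (1.57 to 2.15) over all cells and 1.30 (1.03 to 1.65) within twist1a-high cells, where leaving out the richest cell of each gene gave 1.1 (0.859 to 1.41). Integrins as a sum were at 1.21 (1.01 to 1.44) over all cells, or 1.1 (0.903 to 1.32) without the richest cell of each gene. Within twist1a-high cells they were at 1.63 (1.17 to 2.29), or 1.53 (1.08 to 2.16) without those cells. No difference between these ratios was tested.

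Of the collagens and integrins, COL2A1 (ENSDARG00000069093) went from 5.94 to 22.5 CPM, a ratio of 3.78 (2.21 to 6.33), and 5.22 without the richest cells. ITGB1 (ENSDARG00000104484) went from 8.84 to 30.5 CPM, 3.46 (2.21 to 5.32), itgb3bp from 3.73 to 9.88 CPM, 2.65 (1.19 to 5.52), and itgb1bp1 from 13.4 to 35.0 CPM, 2.62 (1.76 to 3.83). col11a1b went from 3.59 to 10.8 CPM, 3.0 (1.38 to 6.16), and 1.84 without the 6 shared barcodes. col5a1 went from 7.04 to 19.8 CPM, 2.81 (1.62 to 4.71). COL1A1 (ENSDARG00000035809), at 2.0 (0.783 to 4.55), has an interval that includes 1 and was 1.42 without its richest cells.

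Lower over all cells were LAMB1 (ENSDARG00000045524), itga2.3 and itgav. LAMB1 (ENSDARG00000045524) went from 8.70 CPM (63 UMIs) to 2.69 CPM (3 UMIs), a ratio of 0.310 (0.0622 to 0.948). itga2.3 went from 5.66 to 1.80 CPM (2 UMIs), 0.317 (0.0372 to 1.22), and itgav from 13.3 to 4.49 CPM (5 UMIs), 0.339 (0.108 to 0.819). The first and last had intervals below 1. itga9 went from 22.1 to 13.5 CPM, 0.610 (0.334 to 1.04), col18a1a from 20.8 to 14.4 CPM, 0.689 (0.384 to 1.16), itga4 from 14.1 to 9.88 CPM and COL5A2 from 4.69 to 3.59 CPM, none of which was called.

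Also not called were col1a1a (24.7 to 35.9 CPM), col1a2 (8.56 to 9.88 CPM), COL11A1 ENSDARG00000026165 (19.3 to 20.7 CPM), col4a6 (13.5 to 16.2 CPM), col4a5 (4.42 to 6.29 CPM), col16a1 (11.5 to 15.3 CPM), COL14A1 (4.0 to 7.19 CPM), itga3a (8.01 to 14.4 CPM), itga5 (15.5 to 25.2 CPM), itga1 (6.77 to 6.29 CPM) and ITGB1 ENSDARG00000071863 (10.2 to 18 CPM). For col1a1a the ratio was 1.45 (1.01 to 2.06), and 1.82 (1.22 to 2.66) without the richest cells. Members under 30 UMIs had ratios above 1 in 14 of 17 cases. No share over all genes stands beside that count.

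Within classes fewer members could be read. In twist1a-high cells, 8 members had 30 UMIs and 5 were at least 2-fold higher (62.5%), where 5.74% of all genes were higher and 1.41% lower. Beside FBN3, LAMB1 and FN1 these were col1a1a, at 26.4 and 54.3 CPM, a ratio of 2.05 (1.14 to 3.73), and lama4, at 16.8 and 34.4 CPM, 2.04 (0.971 to 4.40). No member was lower there. With median-ratio scaling the ratios of col1a1a, FN1 and lama4 came out just under the 2-fold line, at 1.99, 2.0 and 1.98. COL2A1 (ENSDARG00000011407), at 0.851 (0.572 to 1.25), COL12A1, at 0.821 (0.435 to 1.5), and col5a1, at 1.19 (0.562 to 2.47), were not called.

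In melanin-high cells 3 of 12 members were higher, where 10.5% of all genes were, and 2 lower, where 7.1% were. The higher were FBN3, itgb1bp1, at 16.5 and 48.6 CPM, 2.94 (1.12 to 6.54), and lama4, at 12.4 and 27.7 CPM, 2.24 (0.579 to 6.25), which fell to 1.25 without the richest cell. The lower, COL11A1 at 0.438 (0.0109 to 2.57) and itgav at 0.492 (0.0122 to 2.90), rest on 1 ErbBi UMI each. COL11A1 turned direction under other settings.

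foxd3-positive cells had 0 of 7 members higher, where 6.24% of all genes were, and 2 lower, where 9.2% were. The called members were itga3a at 0.308 (0.00757 to 1.83) and col18a1a at 0.312 (0.0370 to 1.17). itga9 and COL11A1 (ENSDARG00000026165) had 52 and 44 untreated UMIs in this class and 0 with ErbBi, where 3 counts allow up to 23 CPM. Both intervals of the ratio, up to 0.791 and up to 0.941, lay below 1, but at that floor neither was 2-fold lower. In the remaining cells 2 members had 30 UMIs, where 5.32% of all genes were higher and 7.06% lower, and col1a1a was lower at 0.223 (0.0590 to 0.596), going to 0.751 without the richest cell. EGFP-high and gch2-high cells had under 20 cells in the ErbBi library and are not compared.

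Several human-style symbols are each shared by zebrafish paralogues, which are read here in pairs. How the authors' counting treated reads of near-identical copies was not tested. Of the UMIs of the LAMB1 pair, ENSDARG00000101209 held 39.4% (30 to 49.5) untreated and 93.2% (81.3 to 98.6) with ErbBi, on 41 against 63 and 41 against 3 UMIs. The same gene held 65% (40.8 to 84.6) in untreated and 92.3% (74.9 to 99.1) in ErbBi twist1a-high cells. No cell had a UMI of both LAMB1 genes. Both were sparse over the 999 untreated and 348 ErbBi cells, so few shared cells would be seen in any case. Whether the genes exclude each other in a cell was not tested. For ITGB1, ENSDARG00000104484 held 46.4% (37.9 to 55.1) untreated and 63.0% (48.7 to 75.7) with ErbBi of the UMIs it shares with ENSDARG00000071863. Its share was 23.9% (12.6 to 38.8) in untreated foxd3-positive cells. The further ITGB1 genes ENSDARG00000022689 and ENSDARG00000053232, with 9 and 7 UMIs, were left out of these shares. COL2A1 (ENSDARG00000011407) held 77.8% of its pair untreated and 70.2% with ErbBi. For COL11A1, ENSDARG00000026165 held 84.3% (77.9 to 89.5) of the UMIs it shares with col11a1b untreated and 65.7% (47.8 to 80.9) with ErbBi.

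**Figure D5:**
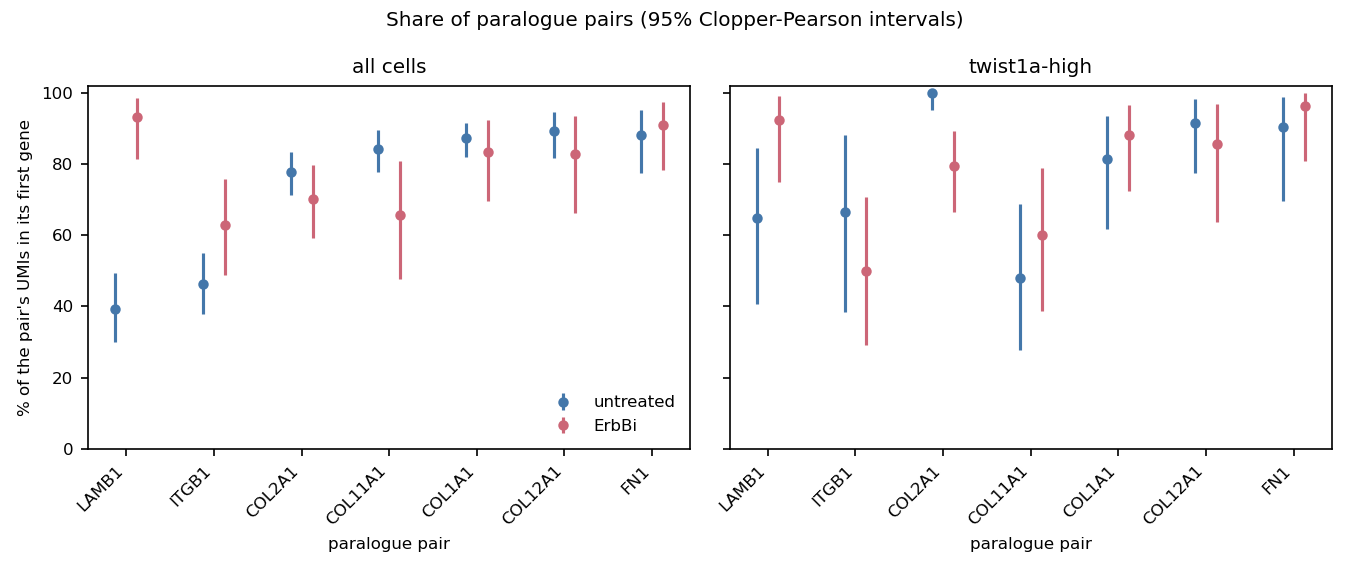
Percent of a paralogue pair's UMIs that fall in its first gene (y axis) for 7 pairs (x axis), over all cells (left) and twist1a-high cells (right), untreated in blue and ErbBi in red, with 95% Clopper-Pearson intervals. The LAMB1 share goes from 39.4% to 93.2% over all cells, and the COL2A1 pair in untreated twist1a-high cells is wholly its first gene.

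Other genes of matrix assembly and adhesion, taken from a list of 66 names, were read in the same way. Of 44 with 30 UMIs, 13 were at least 2-fold higher with ErbBi over all cells and 0 lower, where 12.3% of all genes were higher and 6.15% lower. In twist1a-high cells of both libraries 6 were higher and 1 lower, where 3.28% and 5.84% of all genes were. mfap2, a microfibril protein that binds fibrillin, was at 122 CPM untreated and 317 CPM with ErbBi, a ratio of 2.60 (2.29 to 2.94). Its twist1a-high level was 530 CPM against 69.3 CPM in other untreated cells and 459 against 177 CPM with ErbBi. tgfbi, an integrin-binding matrix protein, was at 93.8 against 15.9 CPM and 66.9 against 26.8 CPM, and NID2 (ENSDARG00000075707), a nidogen named after its values were seen, which links laminin to type IV collagen, at 101 against 24.5 CPM and 85.0 against 32.1 CPM.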

How the data were processed

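Cells of 2 libraries (1 untreated, 1 ErbBi) were read from tables of UMI counts per gene and cell that the authors deposited. Reads were processed with Cell Ranger 2.1.1 and FastQC 0.11.7 against GRCz11, per the submitters' processing notes. The filtered table was used: it held 1347 of 1519 cells, those kept having at least 701 genes, and 0 values differed from the unfiltered table. The cells left out were 23 untreated and 149 ErbBi, with a median of 1344 and 590 UMIs, so the cut fell mostly on the ErbBi library. No coordinates are given, and the RefSeq gene table of GRCz12tu was used for names and for which genes are neighbours. Symbols came from a name table for 17967 of 18723 rows, with human-style symbols left without a paralogue letter.

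UMIs were summed per class and library and divided by total UMIs (CPM). Intervals are exact 95% (Poisson, conditional binomial, Clopper-Pearson) and cover counting error only. A call was a ratio of at least 2-fold with 30 UMIs, in both libraries for classes; a group at 0 was set to 3 counts. With 1 library per treatment there is no test. Scrublet in scanpy 1.11.5 marked 7 untreated and 2 ErbBi doublets, which stayed in. The code was tested on simulated data. 0 columns were unused. Alternatives covered scaling, filters, thinning, doublets and class definitions. Named genes were the 30 members highest in CPM and those called, up to 10 per direction. The members and lists were chosen with earlier results of these data known.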

Additional observations from a re-analysis of the deposited data

Results flagged for a closer look

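col1a1a moved opposite ways with ErbBi in 2 classes. Its ratio of ErbBi to untreated was 2.05 in twist1a-high cells and 0.223 in the remaining cells. The difference between the classes was not tested. Without the richest cell of each library the ratios were 1.79 and 0.751, and a single untreated remaining cell, with fin-fold actinodin genes, held 50 of the 71 col1a1a UMIs of that class.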

How the results depend on the processing

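No paired analysis was possible because neither treatment has a second library, so no replicate could be left out either. Of 4 members higher in twist1a-high cells, 2 were left without the richest cells, 1 at a minimum of 100 UMIs and 1 without the EGFP-high, melanin-high and gch2-high cells. Of 2 lower, 1 was left without cells meeting several definitions, 1 without the richest cells and 1 at a minimum of 100. The other class contrasts, 7 calls, gave 3 without cells meeting several definitions, 17 with stricter class thresholds and 4 at a minimum of 100. The 15 members higher with ErbBi became 26 at a minimum of 10 UMIs, 5 at 100, 9 with the same class weights and 8 without the EGFP-high, melanin-high and gch2-high cells, and the 3 lower became 1 at 100. Of all genes, 18.1% were higher at a minimum of 10 and 6.50% at 100, where 3.58% were lower. The share higher was 9.54% with the same class weights and 7.33% without the EGFP-high, melanin-high and gch2-high cells. The 13 calls within classes became 7 without cells meeting several definitions, 46 at a minimum of 10, 0 at 100 and 8 without those 3 classes, which gave no value for melanin-high cells. No share over all genes was worked out at these settings for the class contrasts or the calls within classes, so those counts are not read alone. Fibrillar collagen shares in twist1a-high cells, 37.6% untreated and 33.6% with ErbBi, were 13.3% and 25.5% thinned to 1000 UMIs and 67.8% and 52.4% without thinning, with 26.8% untreated as the mean of all draws. COL11A1 (ENSDARG00000026165) in melanin-high cells, 0.438, turned to 1.21 as a mean of per-cell CPM and 1.04 with stricter thresholds. Among ratios of named genes under the alternatives that could move them, 498 stayed past 2-fold, 73 did not and 2 turned direction. A UMI minimum cannot move a ratio and is not counted. The causes were not tested. Leaving out the shared barcodes or those 3 classes, and the mean over draws, were chosen after the data were seen. A class of 17 or 18 ErbBi cells resolves about 20 CPM per UMI, so absence there is not readable.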

Other observations

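Adhesion genes outside the families above differed among themselves. tln1, a talin that switches integrins on, went from 58.3 CPM untreated to 74.6 CPM with ErbBi over all cells, ilk, a kinase-like adaptor of integrin tails, from 51.1 to 56.6 CPM, and its partner lims1 from 34.5 to 44.0 CPM, ratios of 1.28, 1.11 and 1.28. The second talin, TLN2 (ENSDARG00000017901), chosen after its values were seen, stood at 63.7 CPM in untreated twist1a-high cells against 9.2 CPM in other cells, and at 90.4 against 16.1 CPM with ErbBi.

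Genes that fold and modify collagen had lower ratios than 2 where they were most abundant. p4hb, a subunit of prolyl 4-hydroxylase, was at 171 and 182 CPM, SERPINH1 (ENSDARG00000019949), the collagen chaperone HSP47, at 105 and 186 CPM, and plod3, a lysyl hydroxylase, at 63.1 and 41.3 CPM. Of 13 such genes with 30 UMIs, 2 were at least 2-fold higher with ErbBi, where 12.3% of all genes were. Against that same share, 7 of 10 other matrix genes and 2 of 4 proteases and inhibitors were. mmp2, a gelatinase, went from 12.8 to 45.8 CPM, and THBS1 (ENSDARG00000010785), thrombospondin, chosen after its values were seen, from 2.21 to 21.6 CPM. Library and treatment cannot be told apart for any of these values.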
